A study of Sus scrofa with 4 samples.

Results

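The genes described here are 10 components of the Notch pathway, namely the receptors NOTCH1, NOTCH2, NOTCH3 and NOTCH4, the ligands JAG1, JAG2, DLL1 and DLL4, and the target genes HES1 and HEY1. They were taken by gene name from 29263 genes counted in each library. A row was found for 8 of the 10 by symbol or by Ensembl identifier, and all 8 passed the filter on low counts. NOTCH1 and JAG2 were not matched to a row and were not analysed here. The libraries came from lung cells of pigs with the LGR5-H2B-GFP knock-in allele. In it, green fluorescent protein fused to a histone is made under the control of LGR5, a receptor for R-spondins. Sorting gave GFP-HI (bright) and GFP-NEG (not fluorescent) cells, with 2 biological replicates of each, and both fractions carry the same knock-in. Histone-bound fluorescent protein is long-lived, so brightness can outlast transcription of the gene. The labels of these samples give no stage, treatment or age, while the name of the authors' comparison table says adult pig.

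Notch is a signalling pathway between touching cells. A ligand of the Jagged or Delta-like family on one cell pulls on a Notch receptor on its neighbour, which exposes the receptor to cleavage by ADAM proteases and then by gamma-secretase. The freed intracellular part enters the nucleus, joins the DNA-binding protein RBPJ and a Mastermind co-activator, and turns on genes of the HES and HEY families, which encode repressors of transcription. In the lung, Notch is known for balancing secretory against ciliated airway cells, for the growth of blood vessels, where DLL4 and NOTCH4 are largely endothelial, and for the maturation of vascular smooth muscle and pericytes, where NOTCH3 is prominent.

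The sort was checked on LGR5 and on marker genes. LGR5 stood at 146 and 152 CPM (counts scaled to a common library size with edgeR's TMM factors) in the GFP-HI libraries and at 1.55 and 0.767 CPM in the GFP-NEG libraries. Library totals were 24200550 and 24689986 for GFP-HI and 6292253 and 7045652 for GFP-NEG, so that depth and fraction cannot be told apart. The summed level of 9 fibroblast markers ranged from 72295 to 81751 CPM in GFP-HI and from 9021 to 25288 CPM in GFP-NEG. Among the immune, endothelial, epithelial and fibroblast lists, no measured marker was at 0 in all libraries. The labels call the replicates biological but do not describe the animals, and p-values reach no further than these 4 libraries. The fit replaced each gene's own residual spread by a trend over all genes. A p-value or standard error of 1 gene therefore does not measure how far that gene's replicates differed.

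Across the 8 measured Notch genes, DLL1 and HES1 were called higher in GFP-HI, and NOTCH4, DLL4 and HEY1 were called lower. NOTCH2, NOTCH3 and JAG1 did not pass the threshold. It was an adjusted p-value under 0.05 in edgeR's quasi-likelihood test, with Benjamini-Hochberg adjustment over 19682 tested genes. That fit did not pair the libraries, and NOTCH3 passed when they were paired by replicate number. Of all tested genes, 8.35% were called higher and 27.6% lower in GFP-HI, against 2 and 3 of the 8 Notch genes. The median log2 fold change (log2FC, GFP-HI over GFP-NEG) was -0.03 over the 8 Notch genes and -0.25 over all tested genes. Both GFP-HI libraries lay above both GFP-NEG libraries for NOTCH3, DLL1 and HES1, a pattern found in 27.7% of tested genes. Both GFP-NEG libraries lay above both GFP-HI libraries for NOTCH4 and DLL4, as in 42.0% of tested genes. Each role in the pathway therefore held genes with fold changes of both signs, as the plot of levels by library shows.

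**Figure D1:**
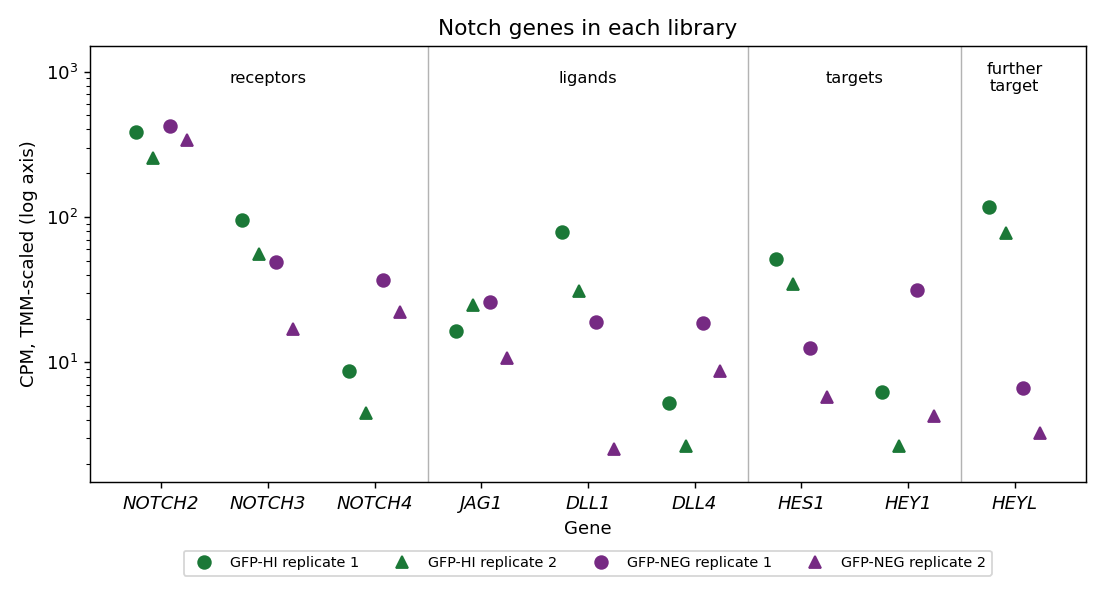
Levels of the 8 measured Notch genes and of HEYL in each of the 4 libraries, in TMM-scaled CPM on a log axis. Green marks GFP-HI, purple GFP-NEG, circles replicate 1 and triangles replicate 2. DLL1, HES1, NOTCH3 and HEYL have both GFP-HI points on top, NOTCH4 and DLL4 both GFP-NEG points. CPM is not divided by transcript length, so heights compare libraries within a gene and not genes with each other.

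Among the receptors, NOTCH4 fell in GFP-HI, NOTCH2 did not differ beyond its error, and NOTCH3 lay just outside the threshold. NOTCH4, a receptor found mainly on endothelial cells, was at 8.70 and 4.51 CPM in GFP-HI and at 37.1 and 22.3 CPM in GFP-NEG. The GFP-HI values rest on 192 and 91 counts, the GFP-NEG values on 239 and 203. The 2 fractions did not overlap. The mean was 6.61 ± 2.96 CPM for GFP-HI against 29.7 ± 10.5 CPM for GFP-NEG (SD, n = 2 each), a log2FC of -2.16 ± 0.59 (SE) with adjusted p = 0.0013 (edgeR). Replicate 1 differed by -2.08 and replicate 2 by -2.27 in log2 CPM, so both replicates showed a fall of nearly the same size. The call was lost when GFP-HI replicate 2 or GFP-NEG replicate 1 was left out (adjusted p of 0.056 and 0.057, edgeR), while the log2FC stayed between -2.65 and -1.74 whichever library was omitted.

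NOTCH3, the receptor best known from smooth muscle and pericytes, was at 95.2 and 55.5 CPM in GFP-HI and at 48.9 and 17.0 CPM in GFP-NEG. The lower GFP-HI library and the higher GFP-NEG library were close. Its log2FC was 1.20 ± 0.52 (SE), with adjusted p = 0.059 (edgeR). With the replicate number as a block, which pairs libraries of the same number, the value was 1.33 and the adjusted p 0.041 (edgeR), so the call depends on pairing. It was 2.15 without GFP-NEG replicate 1 (adjusted p of 0.028) and 0.62 without GFP-NEG replicate 2 (adjusted p of 0.67). The authors' deposited table gives 1.19 with adjusted p = 0.13.

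NOTCH2, a receptor with broad expression that includes myeloid and B cells as well as mesenchyme, was at 386 and 255 CPM in GFP-HI and at 421 and 337 CPM in GFP-NEG. The 2 ranges overlapped. In edgeR the log2FC was -0.24 ± 0.68 (SE), with a 95% interval from -1.58 to 1.10 and adjusted p = 0.82 (edgeR). A change of up to 2-fold in either direction lies within that interval.

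The receptors can also be described by how the raw counts of the 3 measured receptor genes divided among them within a library. These shares are not divided by transcript length, so only the same gene is compared between libraries, and NOTCH1 is missing from the sum. NOTCH4 took 1.77% of the receptor counts in GFP-HI replicate 1 (95% exact Clopper-Pearson interval 1.53% to 2.04%) and 1.43% in replicate 2 (1.15% to 1.76%). In GFP-NEG it took 7.32% (6.45% to 8.26%) and 5.91% (5.15% to 6.75%). NOTCH3 took 19.4% and 17.6% in GFP-HI against 9.64% and 4.51% in GFP-NEG. NOTCH2 held most of the rest in every library, from 78.8% in GFP-HI replicate 1 to 89.6% in GFP-NEG replicate 2. These intervals cover counting error only, since sequencing reads without molecular identifiers are not independent molecules.

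The ratio of NOTCH3 to NOTCH4 counts was 10.9 and 12.3 in GFP-HI against 1.32 and 0.764 in GFP-NEG. On the log2 scale the fractions differed by 3.53, with an SD of 0.12 between the GFP-HI libraries and 0.56 between the GFP-NEG libraries. An exact two-sided permutation test over 2 libraries against 2 gave p = 0.33, the smallest p that this design allows. A ratio of counts within a library does not depend on how libraries are scaled to each other. This one sets a gene with a positive log2FC against one called lower, so a difference follows from those values.

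Among the ligands, DLL1 rose and DLL4 fell in GFP-HI, and JAG1 showed no change beyond its error. DLL1, a Delta-like ligand that activates Notch on neighbouring cells, was at 78.9 and 30.9 CPM in GFP-HI and at 18.9 and 2.52 CPM in GFP-NEG. The counts behind these were 1741 and 623 in GFP-HI against 122 and 23 in GFP-NEG. The fractions did not overlap, although the libraries within each fraction differed widely. The mean was 54.9 ± 33.9 CPM against 10.7 ± 11.6 CPM (SD, n = 2 each). The log2FC was 2.37 ± 0.55 (SE) with adjusted p = 1.6e-04 (edgeR).

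The size of the DLL1 difference differed between the replicates. It was 2.05 in log2 CPM within replicate 1 and 3.54 within replicate 2. Without GFP-NEG replicate 1 the fitted log2FC was 4.44. Without GFP-NEG replicate 2 it was 1.53, and without GFP-HI replicate 1 it was 1.58, and in these last 2 fits the call was lost (adjusted p of 0.21 and 0.14, edgeR). The authors' deposited table gives a log2FC of 2.36 and adjusted p = 0.015 for DLL1.

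DLL4, the ligand of endothelial tip and arterial cells, was at 5.26 and 2.68 CPM in GFP-HI and at 18.8 and 8.77 CPM in GFP-NEG. It was counted 116 and 54 times in GFP-HI against 121 and 80 times in GFP-NEG. The fractions did not overlap. Its log2FC was -1.79 ± 0.72 (SE), with adjusted p = 0.039 (edgeR). Of the called Notch genes it lay nearest the threshold: the authors' deposited table gives -1.80 with adjusted p = 0.056, and leaving out GFP-NEG replicate 1 gave -1.14 with adjusted p = 0.37 (edgeR). The call was also lost without either GFP-HI library, at -2.30 (adjusted p of 0.066) without replicate 1 and -1.36 (adjusted p of 0.26) without replicate 2. With GFP-HI thinned to GFP-NEG depth the log2FC of DLL4 was -1.76 (adjusted p of 0.065, edgeR). It was -1.84 with a filter of at least 10 counts in 2 libraries (adjusted p of 0.063, edgeR), so the call was lost in both. Replicate 1 differed by -1.81 and replicate 2 by -1.66 in log2 CPM.

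JAG1, a Jagged ligand made by endothelial, smooth muscle and airway cells among others, was at 16.4 and 24.9 CPM in GFP-HI and at 25.9 and 10.7 CPM in GFP-NEG. The 2 replicates pointed in opposite directions, with a difference in log2 CPM of -0.66 within replicate 1 and 1.20 within replicate 2. In edgeR the log2FC was 0.18 ± 0.56 (SE), with a 95% interval from -0.92 to 1.27 (adjusted p of 0.84, edgeR). Its sign also turned under other scalings, to -0.20 with library size alone.

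Within the counts of the 3 measured ligands, DLL1 took 78.5% in GFP-HI replicate 1 and 52.8% in replicate 2, against 29.8% and 11.4% in GFP-NEG. The exact 95% intervals were 76.7% to 80.2% and 49.9% to 55.7% in GFP-HI, and 25.4% to 34.4% and 7.39% to 16.7% in GFP-NEG. DLL4 took 5.23% and 4.58% of the ligand counts in GFP-HI against 29.5% and 39.8% in GFP-NEG. The JAG1 share did not separate the fractions, at 16.3% and 42.6% in GFP-HI against 40.7% and 48.8% in GFP-NEG. DLL1 was counted 15.0 and 11.5 times as often as DLL4 in the GFP-HI libraries, and 1.01 and 0.287 times as often in the GFP-NEG libraries. The log2 ratio differed by 4.61 between fractions (exact two-sided permutation test, p = 0.33, the smallest possible with 2 against 2). This ratio sets a gene called higher against one called lower, so a difference follows from those values. Shares of the same sum also depend on each other, so the higher DLL1 counts in GFP-HI lower the DLL4 share there.

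**Figure D2:**
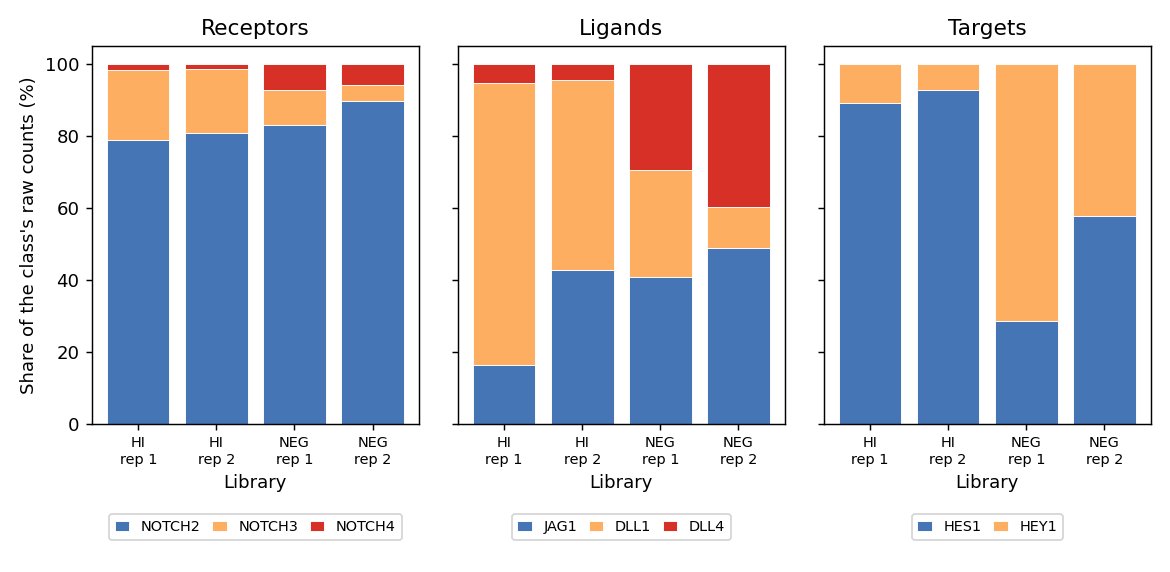
Share of raw counts, in percent, that each measured gene took among the receptors (left), the ligands (middle) and the targets (right) in each of the 4 libraries. DLL1 in the middle panel and HES1 in the right panel take the larger part of both GFP-HI bars, where NOTCH4 and DLL4 are thin. NOTCH1 and JAG2 are not part of the sums, and shares are not divided by transcript length.

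Of the 2 target genes, HES1 rose, while HEY1 was called lower in a call that rested on GFP-NEG replicate 1. HES1, a repressor induced by Notch and by several other signals, was at 51.6 and 34.4 CPM in GFP-HI and at 12.6 and 5.81 CPM in GFP-NEG. It was counted 1140 and 693 times in GFP-HI against 81 and 53 times in GFP-NEG, with no overlap between the fractions. The log2FC was 2.23 ± 0.56 (SE), with adjusted p = 4.1e-04 (edgeR). The difference was similar in both replicates, at 2.03 and 2.54 in log2 CPM. Leaving out any 1 library kept the value between 1.77 and 2.89, but the call was lost without GFP-NEG replicate 2 (adjusted p of 0.15).

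The 12 measured genes of a list of the response to tissue dissociation, with HSPA8 and FOS at the highest levels, summed to 4605 and 3136 CPM in GFP-HI and to 15707 and 12557 CPM in GFP-NEG. Of these 12 genes, 0 had a positive log2FC and 7 were called lower, against 27.6% of all tested genes called lower. The part of dissociation in the HES1 difference was not tested.

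HEY1, a repressor best known downstream of Notch in endothelium, was at 6.30 and 2.68 CPM in GFP-HI and at 31.4 and 4.28 CPM in GFP-NEG. Only GFP-NEG replicate 1 was high, and the lower GFP-NEG library fell between the GFP-HI libraries. Its log2FC was -1.98 ± 0.67 (SE), with adjusted p = 0.012 (edgeR). This call rested on 1 library: without GFP-NEG replicate 1 the value was 0.07 (adjusted p of 0.97). It was also lost without GFP-HI replicate 1 (-2.68, adjusted p of 0.053) or replicate 2 (-1.48, adjusted p of 0.26). Replicate 1 differed by -2.29 and replicate 2 by -0.65 in log2 CPM. The authors' deposited table gives -1.98 with adjusted p = 0.073, and DESeq2 on the same counts gave -2.01 with adjusted p = 0.059. The HEY1 call was lost as well with GFP-HI thinned to GFP-NEG depth (-1.79, adjusted p of 0.056, edgeR). A filter of at least 10 counts in 2 libraries gave -2.03 (adjusted p of 0.082, edgeR).

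The HES1 to HEY1 count ratio was 8.20 and 12.8 in GFP-HI against 0.401 and 1.36 in GFP-NEG. The log2 ratio differed by 3.80 between fractions, with an SD of 0.46 in GFP-HI and 1.25 in GFP-NEG (exact two-sided permutation test, p = 0.33, the smallest possible). Since HES1 was called higher and HEY1 lower, a difference follows from those values. HES1 made up 89.1% and 92.8% of the summed HES1 and HEY1 counts in GFP-HI against 28.6% and 57.6% in GFP-NEG.

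**Figure D3:**
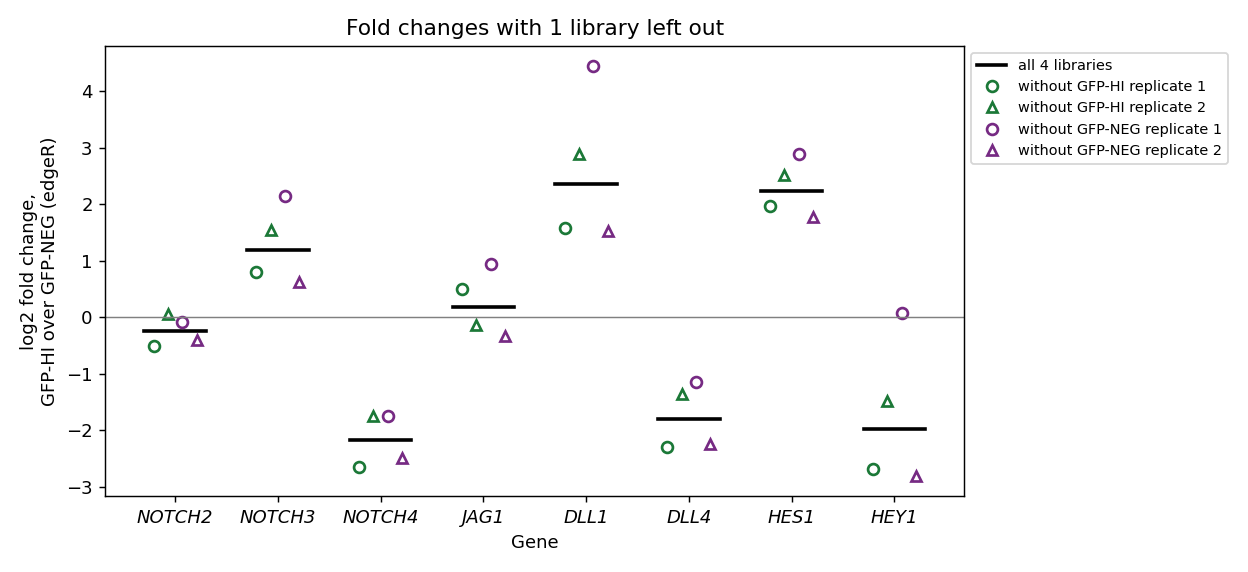
Log2FC of GFP-HI over GFP-NEG from edgeR for the 8 measured Notch genes, with all 4 libraries (black bars) and with each library left out in turn (open symbols, coloured and shaped by the library omitted). HEY1 moves from -1.98 to 0.07 when GFP-NEG replicate 1 is omitted, and DLL1 from 2.37 to 4.44, while HES1 stays between 1.77 and 2.89. In each of these fits 1 fraction is a single library.

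The replicates of a fraction differed in a common direction for these genes. GFP-NEG replicate 1 was above replicate 2 for 8 of the 8 Notch genes, by 1.25 times to 7.51 times (DLL1). GFP-HI replicate 1 was above replicate 2 for 7 of the 8, the exception being JAG1. Over all tested genes, replicate 1 was above replicate 2 for 44.8% in GFP-NEG and 45.5% in GFP-HI.

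The other genes of the pathway were taken from lists by role, with 61 genes listed, 59 matched to a row and 54 tested. Of the 54, 11 were higher in GFP-HI, against 8.35% of all tested genes, and 4 were lower, against 27.6%. Their median log2FC was 0.37, and 27.8% were called in either direction, against 36.0% of all tested genes. Calls fell on 3 of 5 further targets and on 0 of 9 genes of receptor cleavage. For endocytosis and turnover they fell on 5 of 14 genes, or 35.7%, near the share of all tested genes.

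Among all tested pathway genes, HEYL had the highest log2FC. HEYL encodes a repressor of the HEY family and is known as a NOTCH3 target in smooth muscle and pericytes. It was at 117 and 77.3 CPM in GFP-HI and at 6.68 and 3.29 CPM in GFP-NEG, from 2591, 1559, 43 and 30 counts. The fractions were far apart. In edgeR the log2FC was 4.30 ± 0.60 (SE), with adjusted p = 2.0e-10 (edgeR), and it was 4.11 within replicate 1 and 4.50 within replicate 2 in log2 CPM. It was past the threshold under each of the 12 alternatives, with values from 3.86 to 4.88.

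HEY2 and HES2 fell, unlike HEYL. HEY2, which specifies arterial endothelium and cardiac ventricle, was at 0.680 and 2.08 CPM in GFP-HI and at 12.6 and 4.49 CPM in GFP-NEG, a log2FC of -2.62 (adjusted p of 0.018, edgeR). HES2 was low everywhere, at 0.0906 and 0.545 CPM in GFP-HI and at 3.57 and 6.25 CPM in GFP-NEG, and also fell by 3.93 (log2; adjusted p of 0.0075, edgeR). Both lost their call without GFP-HI replicate 1, HEY2 also without GFP-NEG replicate 1 and HES2 without GFP-NEG replicate 2. HES4 and HES6 had log2FC values of -0.75 and 0.22 and were not past the threshold. HES5 had at most 4 counts in a library and HES7 had 0 in all 4, and neither was tested, and NRARP was not matched to a row.

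The ratio of HEYL to HEY1 counts was 18.6 and 28.9 in GFP-HI against 0.213 and 0.769 in GFP-NEG. It sets the pathway gene with the highest log2FC against one called lower, so a difference follows from those values. The HEY1 call rested on GFP-NEG replicate 1. The log2 ratio differed by 5.84 between fractions, with SDs of 0.45 and 1.31 (exact two-sided permutation test, p = 0.33, the smallest possible).

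Of the genes for ligand and receptor endocytosis and turnover, 4 of 14 rose and 1 fell in GFP-HI. Of all tested genes, 8.35% were called higher and 27.6% lower. DTX4, a Deltex-family ubiquitin ligase, was at 160 and 98.3 CPM in GFP-HI and at 27.2 and 6.03 CPM in GFP-NEG, a log2FC of 2.97 ± 0.57 (SE; adjusted p of 6.8e-06, edgeR). DTX1, a Deltex gene that is itself induced by Notch in lymphocytes, was at 21.1 and 20.03 CPM in GFP-HI and at 4.81 and 1.86 CPM in GFP-NEG, a log2FC of 2.64 (adjusted p of 5.7e-04). Its counts are uncertain where they may be shared with RASAL1, whose span overlaps it in RefSeq. NEURL1 and MIB1, ubiquitin ligases that act on Notch ligands, had log2FC values of 1.91 and 1.373 (adjusted p of 0.0022 and 0.027). DTX2 fell by 1.31 (adjusted p of 0.035, edgeR). The MIB1 and DTX2 calls were lost in 7 and 6 of the 12 alternatives. Without GFP-NEG replicate 2, the calls of DTX4 (2.25, adjusted p of 0.077), DTX1 (2.09, adjusted p of 0.092) and NEURL1 (1.44, adjusted p of 0.24) were lost. That of NEURL1 was also lost without GFP-HI replicate 2 (1.27, adjusted p of 0.16, edgeR).

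The genes that add sugars to Notch receptors went in different directions. MFNG, a fringe glycosyltransferase that alters which ligands a receptor answers to, was at 9.29 and 15.4 CPM in GFP-HI and at 102 and 172 CPM in GFP-NEG. Its log2FC of -3.48 ± 0.58 (SE) had an adjusted p of 1.7e-07 (edgeR) and stayed between -3.97 and -3.05 under the 12 alternatives, past the threshold in each. The immune markers lay the same way: 13 of them summed to 362 and 558 CPM in GFP-HI and to 2206 and 2600 CPM in GFP-NEG. Of the 13, 9 were called lower, against 27.6% of all tested genes, and none was at 0. PTPRC, the pan-leukocyte antigen CD45, was at 45.9 and 121 CPM against 687 and 1214 CPM. Their part in the MFNG difference was not tested. The other 2 fringe genes were not past the threshold, with LFNG at -0.88 and RFNG at 0.61 (adjusted p of 0.21 and 0.53). POFUT1, which adds the fucose that fringe enzymes extend, was at 170 and 204 CPM in GFP-HI and at 73.1 and 38.5 CPM in GFP-NEG, a log2FC of 1.74 (adjusted p of 0.010). It was 1.35 without GFP-NEG replicate 2 and lost its call there (adjusted p of 0.33, edgeR).

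The cleavage genes, RBPJ and the Mastermind genes did not pass the threshold, apart from alternative fits named below. The 9 cleavage genes ranged from -0.86 for ADAM10 to 1.01 for APH1B. ADAM17, the other sheddase, was at -0.36 (adjusted p of 0.63, edgeR). ADAM10 passed the threshold only when libraries were scaled by size alone (-1.30, adjusted p of 0.043, edgeR). RBPJ, the DNA-binding partner of Notch, was at 181 and 342 CPM in GFP-HI and at 155 and 134 CPM in GFP-NEG. Its log2FC of 0.86 ± 0.62 (SE) was not past the threshold (adjusted p of 0.30). The Mastermind genes MAML1, MAML2 and MAML3 had values of 0.04, 0.77 and 1.39 (adjusted p of 0.97, 0.30 and 0.064), and MAML3 passed with the replicate block (adjusted p of 0.041) and without GFP-HI replicate 2 (adjusted p of 0.047).

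Of the 15 nuclear factors, 3 were higher in GFP-HI, against 8.35% of all tested genes. TLE1 and CIR1 among the 3 encode corepressors. TLE1, a Groucho-family partner of HES proteins, was at 73.3 and 38.9 CPM against 21.1 and 12.8 CPM, a log2FC of 1.73 (adjusted p of 0.0047, edgeR). Its call was lost without GFP-HI replicate 1 or GFP-NEG replicate 2, where its lowest value was 1.26. CIR1, a corepressor that binds RBPJ, was at 1.31 (adjusted p of 0.036, edgeR) and lost its call in 9 of the 12 alternatives, the replicate block among them (1.21, adjusted p of 0.068).

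Of the non-canonical ligands, MFAP2 and MFAP5 rose. Both are microfibril-associated matrix proteins of elastic fibres that can also bind Notch or its ligands. MFAP5 was at 1075 and 2562 CPM in GFP-HI and at 272 and 90.6 CPM in GFP-NEG, and MFAP2 at 213 and 133 CPM against 44.9 and 14.8 CPM. Their log2FC values were 3.33 and 2.54 (adjusted p of 0.0016 and 1.5e-04, edgeR), and both calls were lost without GFP-NEG replicate 2, at 2.74 and 1.95 (adjusted p of 0.12 and 0.16). They moved with the fibroblast markers, all 9 of which had both GFP-HI libraries on top, a pattern found in 27.7% of tested genes. The part of fibroblast content in the MFAP2 and MFAP5 values was not tested. DLK2, CCN3 and DNER were tested and not past the threshold. DLL3, DLK1 and CNTN6 had at most 7 counts in any library and were not tested.

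**Figure D4:**
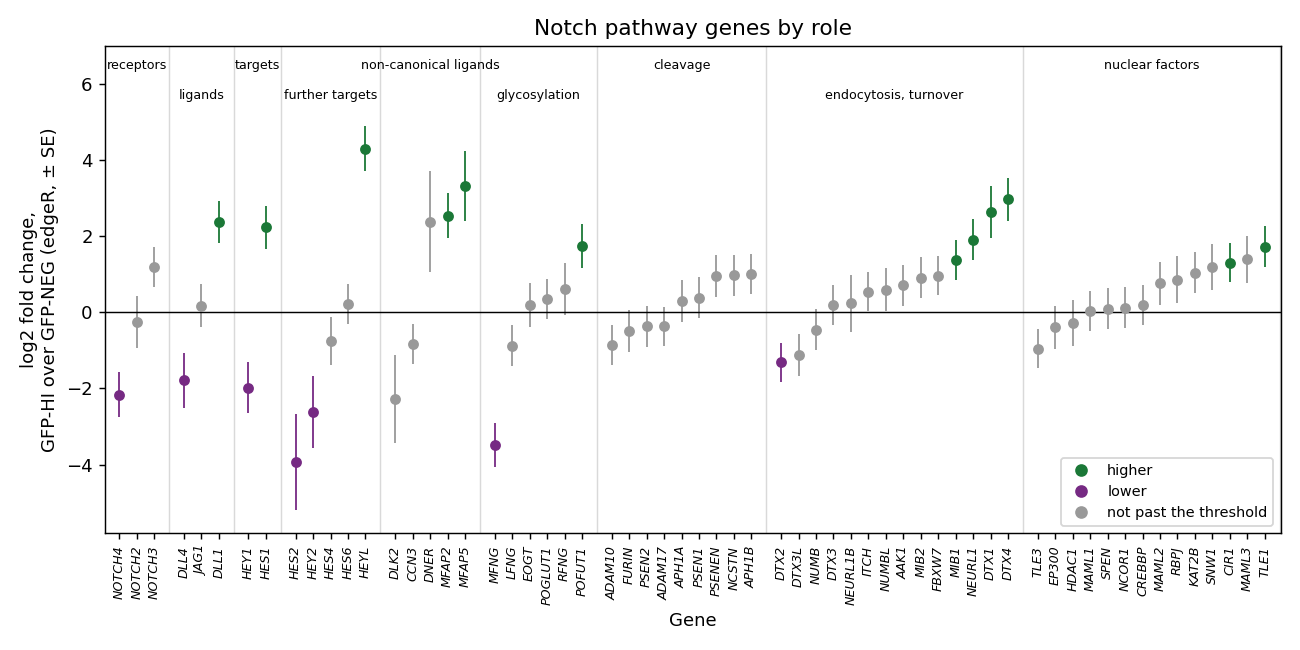
Log2FC of GFP-HI over GFP-NEG from edgeR, with its standard error, for the 8 measured Notch genes and the tested genes of the pathway lists other than 1 not reported here, grouped by role and sorted within a role. Green genes were called higher, purple genes lower, and grey genes did not pass the threshold. HEYL at 4.30 is the highest point and HES2 at -3.93 the lowest, and the cleavage genes are all grey.

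The Notch genes that were lower in GFP-HI are known from endothelium, and endothelial markers were lower as well. In bulk libraries, fewer cells of a type and less RNA per cell cannot be told apart. The 12 measured endothelial markers summed to 231 and 237 CPM in GFP-HI and to 1528 and 630 CPM in GFP-NEG. Of the 12, 11 were called lower, against 27.6% of all tested genes. None was at 0, and ERG was the only one not called. PECAM1 and CLDN5 had the highest levels of the list. The log2 ratio of the summed levels, GFP-HI over GFP-NEG, was -2.73 in replicate 1 and -1.41 in replicate 2.

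Set against that sum, NOTCH4 showed no separation. For every 1000 counts of the 12 endothelial markers, NOTCH4 had 37.7 and 19.0 in GFP-HI against 24.3 and 35.3 in GFP-NEG. DLL4 stood at 22.8 and 11.3 per 1000 in GFP-HI against 12.3 and 13.9 in GFP-NEG, and HEY1 at 27.3 and 11.3 against 20.5 and 6.78. For each of the 3 genes the fractions overlapped on this scale. NOTCH3 and JAG1 did not overlap on it. NOTCH3 was at 413 and 234 per 1000 in GFP-HI against 32.0 and 27.0, and JAG1 at 70.9 and 105.1 against 17.0 and 17.0. The endothelial sum was itself lower in GFP-HI, so a gene that did not fall with it is set apart on this scale by the divisor. In CPM the JAG1 values of the 2 fractions overlapped. Per 1000 smooth muscle and pericyte marker counts, JAG1 lay the other way, at 6.71 and 8.44 in GFP-HI against 9.13 and 23.6 in GFP-NEG. These ratios are descriptions, and the part of endothelial content in the NOTCH4, DLL4 and HEY1 differences was not tested.

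The arterial endothelial list was mixed. Its 7 genes summed to 308 and 228 CPM in GFP-HI and to 219 and 74.1 CPM in GFP-NEG. Of the 7, 4 were called lower and 1 higher, against 27.6% and 8.35% of all tested genes. Their median log2FC was -1.92. GATA2 and GJA5 had its highest levels, and GATA2, a factor also known from blood cells, was the gene called higher. GATA2 was at 251 and 168 CPM in GFP-HI and at 34.8 and 11.9 CPM in GFP-NEG. It thus made up most of the GFP-HI sums, which do not stand for the rest of the list.

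NOTCH3 and HEYL are known from smooth muscle and pericytes, and that list did not separate the fractions. Its 13 genes, led by ACTA2 and PDGFRB, summed to 2438 and 2956 CPM in GFP-HI and to 2841 and 456 CPM in GFP-NEG. Of the 13, 3 were called higher and 5 lower, with none at 0, against 8.35% and 27.6% of all tested genes called. Per 1000 counts of this list, NOTCH3 had 39.0 and 18.8 in GFP-HI against 17.2 and 37.3 in GFP-NEG, which overlap. The 11 epithelial genes summed to 833 and 228 CPM in GFP-NEG and to 368 CPM in each GFP-HI library. All 11 had a negative log2FC, and 4 were called lower, against 27.6% of all tested genes. The 2 with the highest levels, SFTPC and SCGB1A1, were not called. GFP-NEG replicate 1 was above replicate 2 for the smooth muscle, endothelial, arterial, fibroblast, epithelial and dissociation lists, and below it for the immune list. In GFP-NEG, replicate 1 was also above replicate 2 for 8 of the 8 Notch genes, and the part of cell content in that order was not tested. DLL1, HES1, NOTCH3 and HEYL lay on the same side as the fibroblast markers. Of these markers, 6 of 9 were called higher, against 8.35% of all tested genes, and none was at 0. The part of fibroblast content in DLL1, HES1, NOTCH3 and HEYL was not tested.

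**Figure D5:**
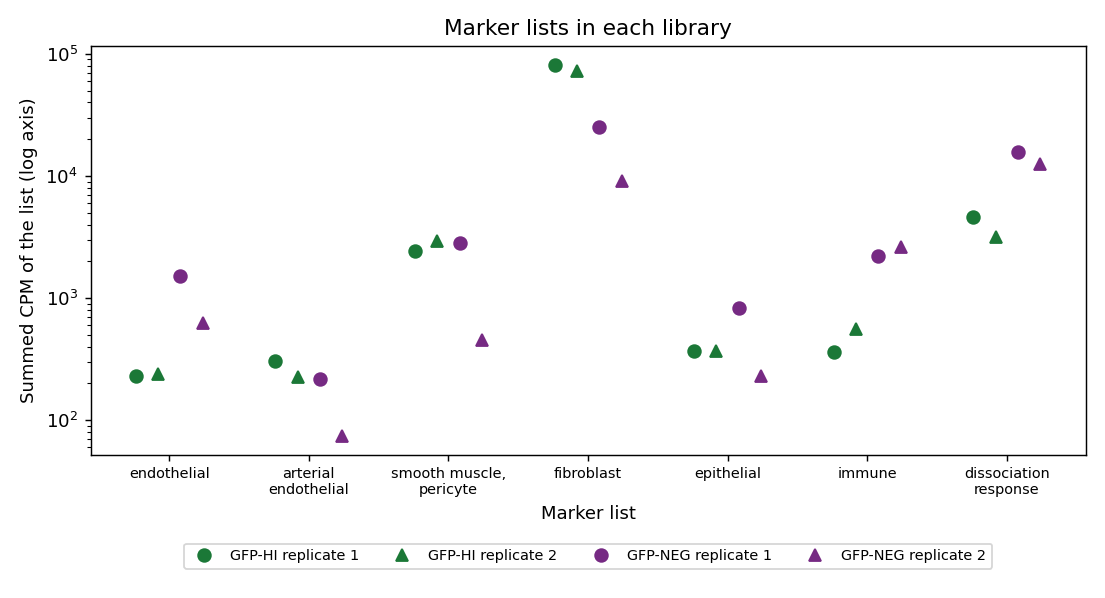
Summed level of each marker list in each of the 4 libraries, in TMM-scaled CPM on a log axis, with green for GFP-HI, purple for GFP-NEG, circles for replicate 1 and triangles for replicate 2. Endothelial, immune and dissociation-response sums are lower in both GFP-HI libraries, fibroblast sums are higher, and the smooth muscle and epithelial sums overlap. The sums are set by the most abundant genes of each list.

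Some of these genes have neighbours that could share reads. In the RefSeq gene table of assembly Sscrofa11.1, the spans of NOTCH2 and NOTCH4 each overlap 1 long non-coding gene and that of NOTCH3 overlaps 1 protein-coding gene, whereas no gene overlaps JAG1, DLL1, DLL4, HES1, HEY1 or HEYL. The name of the authors' comparison table carries the number of that assembly, but the labels do not state which build and strand setting the counting used, so the counts of the 3 receptors are uncertain to that extent.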

How the data were processed

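RNA-seq covered 4 libraries. The authors deposited a table of whole-number gene counts for every library; featureCounts (Subread 1.5.2) and DESeq2 1.37.6 are named per the submitters' processing notes, while aligner and strand setting are not given in the sources used here. The authors' deposited table of 16250 genes adds a log2 fold change with raw and adjusted p-values, and its name carries the number of assembly Sscrofa11.1 and an annotation release. Its 4 normalized columns per sample were not used.

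Of the Ensembl identifiers, 834 were given a symbol from a gene name table. Counts were tested with edgeR 4.0.16 in R 4.3.3 (TMM, filterByExpr, glmQLFit, glmQLFTest, group as the only term), with Benjamini-Hochberg adjustment over 19682 genes. The common dispersion was 0.239, and the fit shrank each gene's residual spread fully to the trend. The SE was taken as log2 fold change over root F, and 95% intervals of fold changes are normal and unadjusted. Within-replicate differences use log2 CPM with a prior count of 2. One count was worth 0.0453 and 0.0496 CPM in GFP-HI and 0.155 and 0.110 CPM in GFP-NEG.

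Replicate numbers were taken to pair the fractions in the block fit only, and the main test left pairing out. Headings of the authors' table name pig 1 and pig 2 in both fractions, although LGR5 under those headings goes against their fraction names. Same-numbered libraries deviated together only weakly across genes (r = 0.16). The paired fit is given where it changes a call. Alternatives were 3 scalings, 2 filters, DESeq2 1.42.0, the block, thinned counts and leaving out each library. The procedure was run on simulated data in which all genes shared a dispersion, few genes changed and libraries were not paired. These data differ in that, so the run checks the code and not the calls. The members and lists were chosen with earlier results of these data known. Named genes are the members, LGR5, pathway genes past the threshold, a fixed set (RBPJ, MAML1 to MAML3, ADAM10, ADAM17, fringe genes), the 2 highest markers of a list and PTPRC. The others, such as APH1B and ERG, were named after their values were seen. One gene of the pathway lists counts in the totals but is not reported here.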

Additional observations from a re-analysis of the deposited data

How the results depend on the processing

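With 2 libraries a fraction, and GFP-HI 3.67 times as deep, none of the 5 Notch calls held under all 12 alternatives. DLL1, HES1 and NOTCH4 kept direction and call under the 8 alternatives that used all libraries, and DLL4 and HEY1 kept direction. When each library was left out in turn (the lone library is then assumed to vary like the others), 0 to 3 Notch genes were higher and 0 to 3 lower, 1 to 10 other pathway genes were higher and 2 to 3 lower, and 204 to 1539 of all genes were higher and 1373 to 4680 lower. Only 1 Notch gene was lower with at least 10 counts in 2 libraries and after thinning GFP-HI to GFP-NEG depth, and 7 other pathway genes were lower with library size alone. Of all genes, 1083 were higher with upper-quartile scaling, 888 with library size alone and 951 with at least 10 counts in 2 libraries, where 3182 were lower; 3558 were lower after thinning. The replicate block gave 1707 higher and 4793 lower genes against 1643 and 5433, of which 1507 and 4680 were shared, and of the named calls it changed those of NOTCH3, MAML3 and CIR1. Over all genes the median log2 fold change was -0.25, but -0.58 by upper quartile and -0.68 by library size alone. Signs turned for 6 genes, of which HEY1 was a call. JAG1 was at -0.10 (upper quartile), -0.20 (library size alone), -0.026 (thinned) and from -0.33 to 0.94 with a library left out. MAML1 was at -0.0010 (RLE), -0.27 (upper quartile), -0.35 (library size alone), -0.018 (10-count filter), -0.0011 (DESeq2), -0.16 (thinned) and from -0.32 to 0.39 with a library left out. NOTCH2 ranged from -0.51 to 0.056, HEY1 from -2.80 to 0.071, RFNG from -0.013 to 1.10 and ADAM17 from -0.76 to 0.19 with a library left out. The causes were not tested.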
